A study of Mus musculus with 6 samples.

Results

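Neuronal intermediate filaments were followed through 5 genes, Nefl, Nefm, Nefh, Ina and Prph, taken by gene name from the deposited table of 55414 genes. Nefl, Nefm and Nefh encode the light, medium and heavy neurofilament chains, Ina encodes alpha-internexin and Prph encodes peripherin. The genes were proposed with the contrast of PV against Drd2 neurons already known, because Nefh and Nefm stood out in it. Their values in that contrast are therefore a description, and where a gene-wide fit passed a member, that is printed and supports nothing.

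Intermediate filaments are rope-like polymers that fill the axon. Neurofilaments are built around the light chain, and the medium and heavy chains add long tails that project sideways and carry many phosphorylation sites. Neurofilament content is known to go with axon calibre, and large, fast-conducting projection neurons are rich in it. Alpha-internexin copolymerizes with the 3 chains in the central nervous system and appears earlier in development. Peripherin is best known from peripheral neurons and a few central groups.

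The data are RNA-seq libraries from the medial mammillary nucleus, a cell group of the posterior hypothalamus, of male mice. Fluorescent neurons were aspirated with glass electrodes from papain-treated slices, and SMARTer libraries were made from their RNA. The PV group (PV-positive genotype, after the calcium-binding protein parvalbumin) has 3 libraries, replicates 6, 7 and 8, and the Drd2 group (Drd2-positive genotype, after the D2 dopamine receptor) has 3, replicates 1, 2 and 3. The labels leave out the driver or reporter behind the fluorescence, the age of the mice and the number of cells or mice behind a library. The series calls the libraries biological replicates, but with no animals named their spread may be partly technical. The p-values rest on that spread, moderated by the spread of other genes.

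The tails set the heavy chain apart, and a stretch of its coding sequence (GENCODE M21, GRCm38) is printed 5′ to 3′ to show the repeat. Runs of 3 codons for lysine, serine and proline (AAA or AAG, then TCN, AGT or AGC, then CCN, in frame), the sites that proline-directed kinases phosphorylate in the tails, occur 51 times in the 1090 codons of Nefh and 4 times in the 848 codons of Nefm. There are none in Nefl, Ina or Prph. The densest 120 bases of the Nefh coding sequence hold 7 of them, shown in capitals.
Nefh (chr11:4940938-4941057, - strand): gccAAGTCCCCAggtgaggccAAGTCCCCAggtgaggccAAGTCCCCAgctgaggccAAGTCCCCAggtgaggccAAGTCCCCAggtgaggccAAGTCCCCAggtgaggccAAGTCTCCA
Apart from a stretch where Nefl and Nefm lie on opposite strands, no window of 50 bases in one member's transcript came back in another. The Nefh repeat leaves 3.80% of 50-base windows and 1.13% of 100-base windows of the Nefh transcript found more than once within it. Read length, and how reads with several matches were treated, were not stated in the sources.

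Nefm and Nefl are neighbours on chromosome 14 and face each other on opposite strands. Nefl runs from 68083863 to 68089095 on the plus strand. Nefm runs from 68082590 to 68124846 on the minus strand, because 1 of its 2 annotated transcripts reaches across Nefl. That transcript shares 1108 exonic bases with Nefl (32.8% of the Nefl exon bases and 19.2% of those of Nefm), while the coding transcript of Nefm used here shares 0. The sources do not state whether counting used strand, so reads in the shared stretch cannot be assigned to either gene with certainty. Whole read numbers were recovered for all 5 members with the summed exon length, 5782 bases for Nefm, of which 2448 belong only to the longer transcript. Taken over the 3334 bases of the coding transcript, every Nefm level is 1.73 times the deposited one. This keeps all Nefm reads, as if none came from the longer transcript or from Nefl. The ratio between groups is therefore unchanged by construction.

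**Figure D1:**
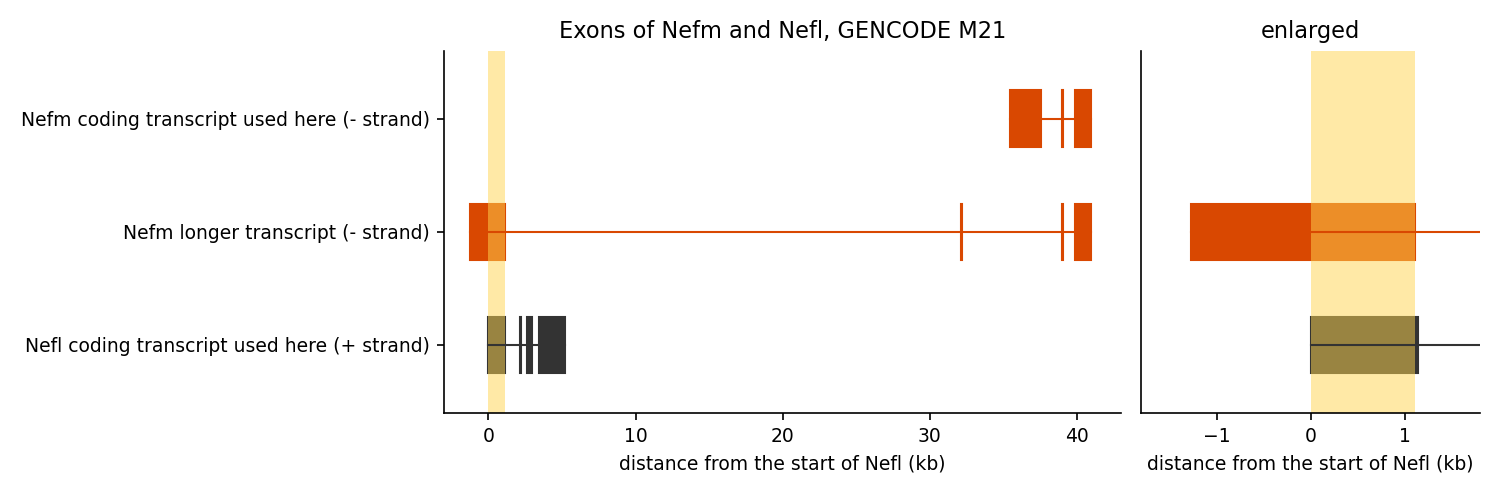
Exons (boxes) and introns (lines) of the Nefm and Nefl transcripts, by distance from the start of Nefl in kb, with the minus-strand Nefm above the plus-strand Nefl and an enlarged view at the right. The yellow band marks the 1108 bases shared by Nefl and the longer Nefm transcript, and the coding transcript of Nefm lies outside it.

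Ina (chromosome 19, 47014698 to 47025327) shares the first 456 of its 3240 exon bases with an exon of Nt5c2 on the opposite strand, which was at 8.70, 2.37 and 8.47 FPKM in PV replicates 6, 7 and 8, against 13.8, 2.33 and 7.92 FPKM in Drd2 replicates 1, 2 and 3. Nefh (chromosome 11, 4938754 to 4948064) and Prph (chromosome 15, 99055174 to 99058978) shared no 50-base window with a transcript of another gene.

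Neurofilament transcripts were more abundant in PV neurons, while alpha-internexin was abundant in both classes and peripherin was near 0 in most libraries. Levels are given as FPKM, fragments scaled to exon length and to the fragments of the library, so that genes can be compared per length. In bulk RNA of this kind, fewer cells of a type and less RNA per cell cannot be told apart.

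Nefl, the core chain of the filament, was at 118, 155 and 212 FPKM in PV replicates 6, 7 and 8, against 40.5, 44.9 and 39.9 FPKM in Drd2 replicates 1, 2 and 3. The lowest PV value was 2.63 times the highest Drd2 value. PV libraries varied (161 ± 47.3 FPKM; SD, n = 3) and Drd2 libraries hardly did (41.8 ± 2.70 FPKM; SD, n = 3). Behind these values stood 11881, 14480 and 20300 reads in the PV libraries and 4622, 4553 and 3216 reads in the Drd2 libraries.

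Nefm, the medium side-arm chain, was at 112, 61.5 and 117 FPKM in PV replicates 6, 7 and 8, against 7.14, 16.1 and 12.4 FPKM in Drd2 replicates 1, 2 and 3. The means were 96.9 ± 30.7 FPKM in PV and 11.9 ± 4.52 FPKM in Drd2 (SD, n = 3 each). Its SD was 31.7% of the mean in PV and 38.0% in Drd2, the highest such shares among the 4 abundant members, and PV replicate 7 lay far below the other PV libraries. Even so, its value was 3.81 times the highest Drd2 value. The ratio of the group means was 8.15, the highest of the 5 genes.

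Nefh, the heavy side-arm chain, was at 79.6, 74.9 and 82.9 FPKM in PV replicates 6, 7 and 8, against 12.5, 14.0 and 11.7 FPKM in Drd2 replicates 1, 2 and 3. The groups were far apart and tight, at 79.1 ± 4.04 FPKM in PV and 12.7 ± 1.20 FPKM in Drd2 (SD, n = 3 each). PV replicate 7, low for Nefm, was only slightly below the other PV libraries for Nefh. The lowest PV value was 5.33 times the highest Drd2 value, the widest gap of the 5 genes.

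Ina was at 108, 128 and 120 FPKM in PV replicates 6, 7 and 8, against 104, 67.1 and 70.2 FPKM in Drd2 replicates 1, 2 and 3. The groups did not overlap, but only just: Drd2 replicate 1 was within 1.04 times of PV replicate 6. The means were 119 ± 9.88 FPKM in PV and 80.4 ± 20.5 FPKM in Drd2 (SD, n = 3 each). By reads Drd2 replicate 1 (11371) exceeded PV replicate 6 (10443), but its library was larger (33700000 against 29800000 fragments).

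Prph was listed at 0 in PV replicates 6 and 7 and in Drd2 replicate 3. It had 45 reads (0.794 FPKM) in PV replicate 8, 1 read in Drd2 replicate 1 and 550 reads (9.17 FPKM) in Drd2 replicate 2. A single library thus carries nearly all of it. Drd2 replicate 2 was also the library with the highest sum of 8 oligodendrocyte markers (1426 FPKM) and the highest level of Bfsp2 (20.0 FPKM), a filament protein of the eye lens. The summed markers of histaminergic, monoaminergic and cholinergic neurons, groups in which peripherin is found, were at 3.20 FPKM there, with Hdc, the histamine-synthesizing enzyme, at 0.375 FPKM. That sum was higher in PV replicates 6 and 7 (4.23 and 21.6 FPKM), where Prph was listed at 0. In PV replicate 7 it came mostly from Ddc (10.4 FPKM) and Slc18a2 (7.63 FPKM). Hdc and the cholinergic marker Chat (0.142 FPKM) were instead highest in Drd2 replicate 2, at very low levels. Whether other cells contributed the Prph reads was not tested.

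**Figure D2:**
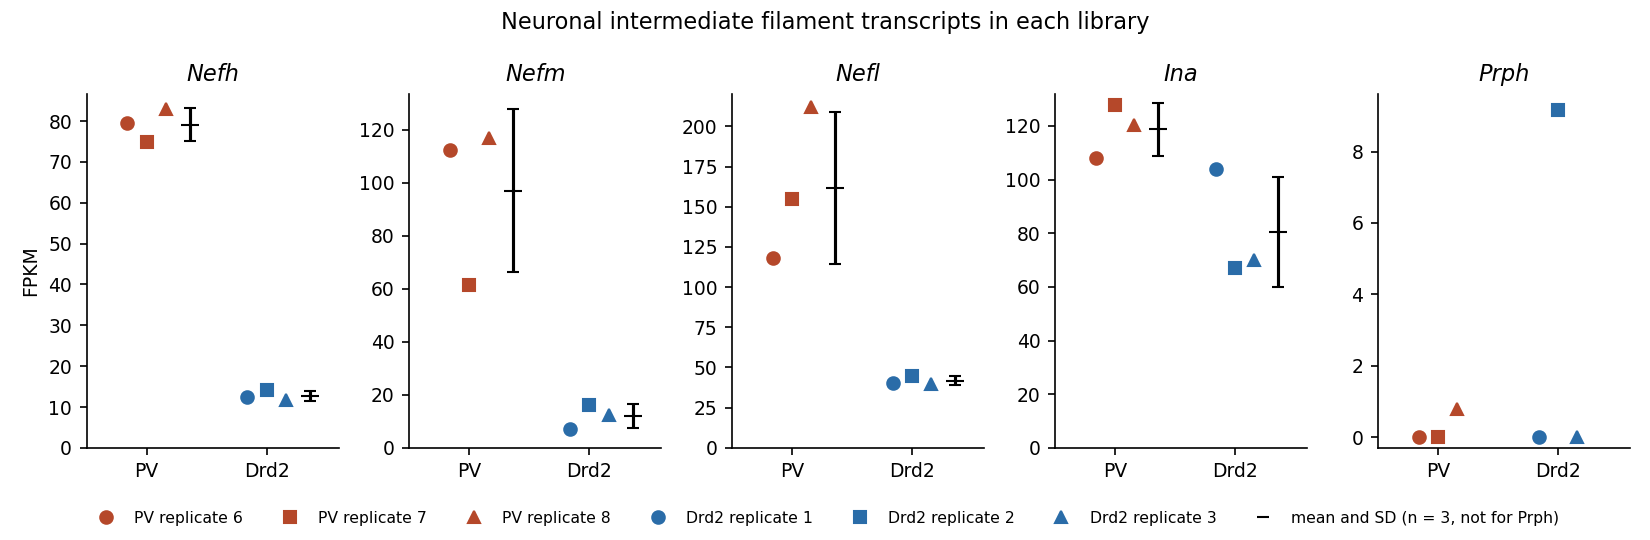
Level of each gene in FPKM (vertical axes, 1 scale per gene) in the 3 PV and the 3 Drd2 libraries, 1 point per library, with the mean and SD beside them except for Prph. For Nefh, Nefm and Nefl every PV point lies well above every Drd2 point, for Ina the nearest points almost touch, and for Prph 1 Drd2 library stands alone.

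Per length, the order of the genes differed between the classes. In PV neurons the mean levels ran from Nefl (161 FPKM) over Ina (119 FPKM) and Nefm (96.9 FPKM) to Nefh (79.1 FPKM). The distance between neighbours in this order was smaller than their larger SD, although Nefl exceeded Ina in all 3 PV libraries. Over its coding transcript Nefm averaged 168 ± 53.3 FPKM (SD, n = 3), and was 1.65, 0.689 and 0.956 times Nefl in PV replicates 6, 7 and 8, so it led in 1 of 3 libraries. In Drd2 neurons Ina (80.4 FPKM) led Nefl (41.8 FPKM) in all 3 libraries, and both exceeded Nefh (12.7 FPKM) and Nefm (11.9 FPKM) in all 3. Nefh and Nefm did not differ there beyond their spread, and over its coding transcript Nefm was at 20.6 ± 7.84 FPKM (SD, n = 3).

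Ranks within a library do not depend on scaling between libraries. Counted from the top of 11478 genes, Nefl ranked 374, 356 and 263 in PV replicates 6, 7 and 8, against 1523, 1345 and 1568 in Drd2 replicates 1, 2 and 3. Nefh ranked 603, 716 and 683 in the PV libraries, among the top 6.24%, and 3715, 3442 and 4184 in the Drd2 libraries, at the top 30.0% to 36.5%. Nefm ranked 402, 850 and 483 in the PV libraries and 5242, 3072 and 4009 in the Drd2 libraries. Ina stayed near the top in both, at 425 to 469 in PV and 624 to 927 in Drd2. The 3 neurofilament genes were thus among the more abundant transcripts of PV neurons, and Nefh and Nefm were of middling abundance in Drd2 neurons.

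The log2 differences, PV minus Drd2 on the log2(FPKM + 1) scale, were 2.93 ± 0.48 for Nefm, 2.55 ± 0.39 for Nefh, 1.89 ± 0.38 for Nefl and 0.58 ± 0.36 for Ina (SE from limma). This SE borrows variance from the other tested genes. For Nefh it is well above the gene's own within-group SD of 0.102, so it does not describe the spread of the Nefh values. The median of all tested genes was -0.28, so relative to it the differences were 3.21 for Nefm, 2.83 for Nefh, 2.16 for Nefl and 0.86 for Ina. Among tested genes 33 had a larger difference than Nefm, 64 than Nefh, 178 than Nefl and 2003 than Ina. Of the 4 members tested, 2 (Nefm and Nefh) passed an adjusted p of 0.05 in limma, where 0.0436% of all tested genes passed as higher in PV, 0.218% as lower and 0.261% in either direction. None of these 4 genes overlapped between the groups, as was so for 5.83% of tested genes in that direction and 19.0% in either. The members were chosen from this contrast, which fixed these outcomes, so nothing is read from them. Prph failed the filter of at least 1 FPKM in at least 3 libraries and has no fold here.

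These calls depended on the fit. Over 18 fits, alternatives included, Nefh passed in 8, Nefm in 7, Nefl in 1 and Ina in 0. Both calls were lost on leaving out any of PV replicates 6 and 8 and Drd2 replicates 1, 2 and 3 alone, without both PV replicate 7 and Drd2 replicate 3 (chosen after seeing the data), with a pseudocount of 0.1 FPKM, with no filter, without the trend and after rescaling to TPM. Nefm also lost its call when levels were rescaled over nuclear protein-coding genes, and Nefl passed only with quantile normalization. No fit turned the sign of any of the 4 differences.

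The make-up of the filament transcripts within a library also needs no scaling between libraries. As a share of the summed FPKM of the 5 genes, Ina made up 25.9%, 30.5% and 22.6% in PV replicates 6, 7 and 8, against 63.4%, 44.3% and 52.3% in Drd2 replicates 1, 2 and 3. Ina was the leading species in every Drd2 library and in no PV library. Nefh made up 17.5% ± 1.77 in PV libraries and 8.53% ± 0.863 in Drd2 libraries, and Nefm 21.2% ± 6.14 in PV libraries and 8.09% ± 3.31 in Drd2 libraries (SD, n = 3 each). The share of Nefl overlapped, at 28.2% to 39.8% in PV and 24.7% to 29.7% in Drd2.

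Set against alpha-internexin, the 3 neurofilament chains together were 2.87, 2.28 and 3.42 times as abundant in PV replicates 6, 7 and 8, against 0.578, 1.12 and 0.912 in Drd2 replicates 1, 2 and 3. The summed level of the 5 genes was 457 ± 66.0 FPKM in PV and 150 ± 15.0 FPKM in Drd2 (SD, n = 3 each). Among the chains, the ratio of Nefh to Nefl was 0.675, 0.484 and 0.391 in PV replicates 6, 7 and 8, and nearly constant at 0.307, 0.313 and 0.293 in Drd2 replicates 1, 2 and 3. The ratio of Nefm to Nefl was 0.397 to 0.954 in PV and 0.176 to 0.360 in Drd2. With the coding transcript of Nefm as its length, these ratios were 0.689 to 1.65 in PV and 0.305 to 0.624 in Drd2, and the ratio of the 3 chains to Ina was 2.63 to 4.13 in PV and 0.628 to 1.30 in Drd2.

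**Figure D3:**
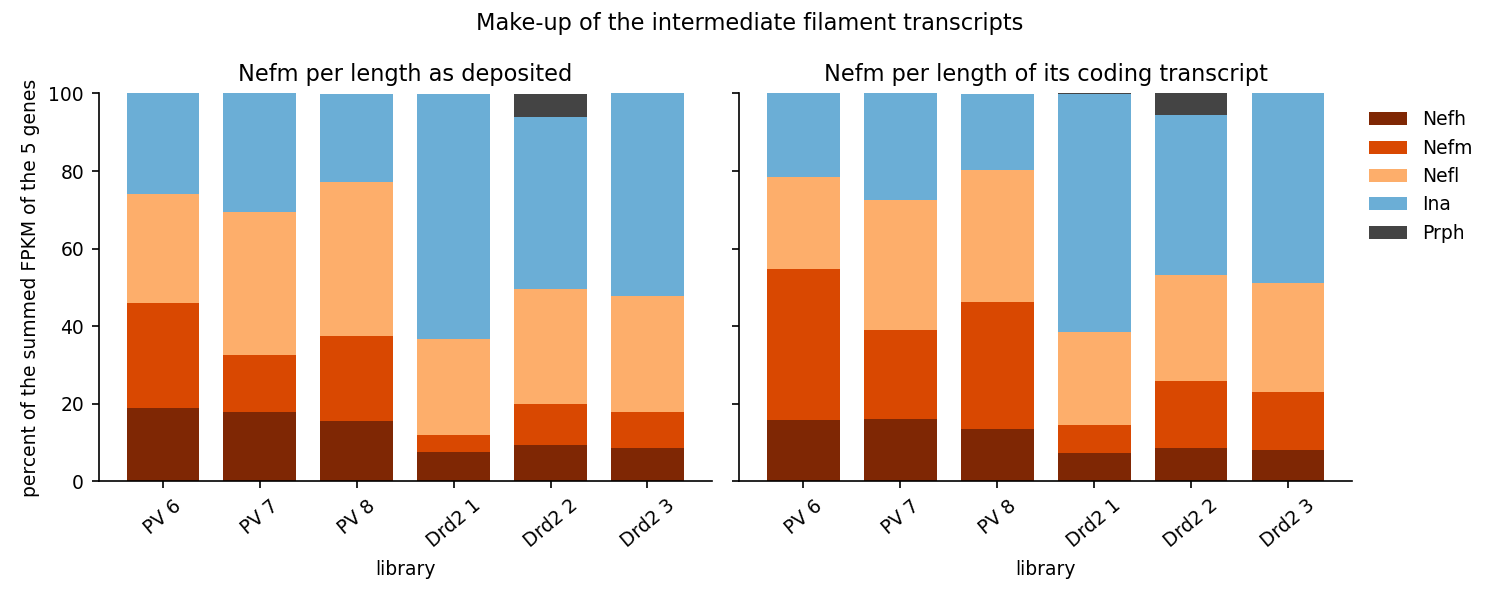
Share of each gene in the summed FPKM of the 5 genes in each library, in percent, with Nefm per deposited length at the left and per length of its coding transcript at the right. Ina fills 22.6% to 30.5% of the PV bars and 44.3% to 63.4% of the Drd2 bars in the left panel, and Prph is visible only in Drd2 replicate 2.

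Among the 4 abundant members, Nefh had the smallest within-group SD when both groups were pooled. Within Drd2 alone, Nefl varied less, with an SD of 6.47% of its mean against 9.45% for Nefh. A gene that stands out in a contrast tends to have a small spread there, so the spread, like the difference, is a description of values that the choice of members used. The within-group SD on the log2(FPKM + 1) scale was 0.102 for Nefh, 0.258 for Ina, 0.304 for Nefl and 0.531 for Nefm. Of all tested genes 0.122%, 3.17%, 5.29% and 23.8% had a smaller one. The value for Nefh moved with the scaling, to 0.183 after rescaling to TPM and 0.165 after scaling to the sum of 5 neuronal markers, where 0.741% and 0.558% of tested genes had a smaller SD. It was the lowest of the 4 members on each of these scales, and both rescalings of the spread were added after seeing the data.

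**Figure D4:**
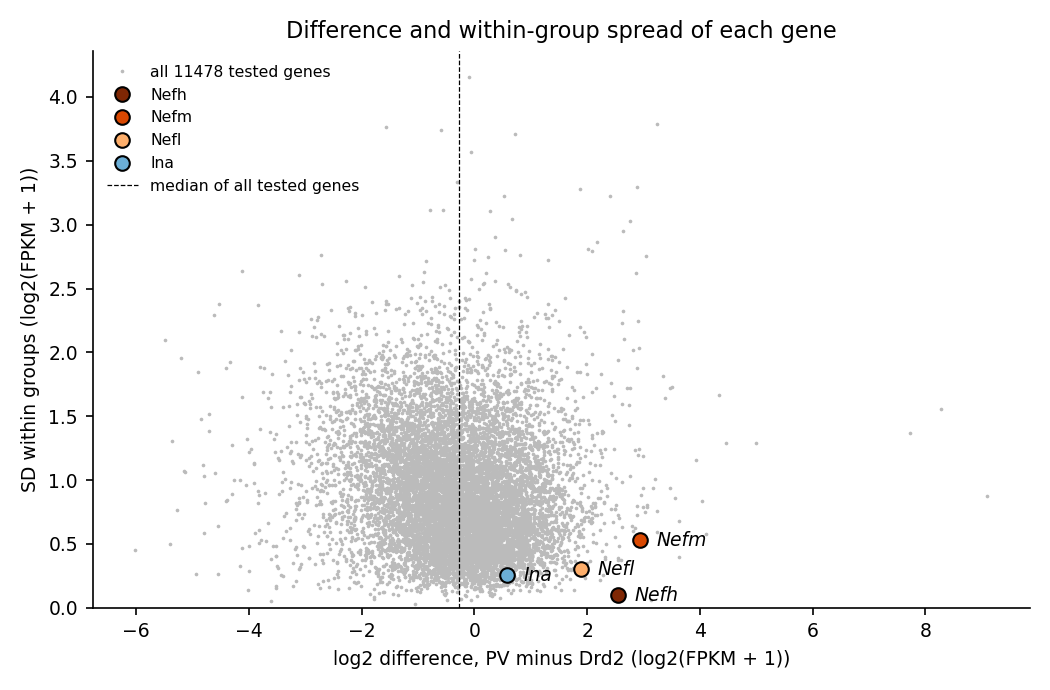
Within-group SD (vertical) against the log2 difference, PV minus Drd2 (horizontal), both on the log2(FPKM + 1) scale, for 11478 tested genes (grey) and the 4 tested members (coloured). Nefh, Nefm and Nefl lie at the lower right, Nefh near the bottom at 0.102, and Ina lies closer to the dashed median at -0.28.

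The libraries differed in more than filament genes. The fragment totals behind FPKM, recovered from low values, were 27700000 to 29800000 in PV and 23800000 to 33700000 in Drd2. Pvalb was at 349 to 563 FPKM in PV and 10.4 to 99.5 FPKM in Drd2, and Drd2 at up to 0.0132 FPKM in PV and 7.74 to 55.0 FPKM in Drd2, with Drd2 replicate 3 nearest to PV in both. Genes at 1 FPKM or more numbered 8610 to 12398 in PV, fewest in PV replicate 7, and 11110 to 12233 in Drd2. Genes of mitochondrial DNA took 9.62% to 31.3% of the FPKM total in PV and 3.74% to 5.20% in Drd2.

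Neuronal markers were abundant in every library, but markers of other cells were too. The sum of 5 neuronal markers was 1290 to 1467 FPKM in PV and 983 to 1194 FPKM in Drd2, without overlap. The sum of 9 microglial markers was 1015, 467 and 308 FPKM in PV replicates 6, 7 and 8, against 23.9, 70.6 and 2250.2 FPKM in Drd2 replicates 1, 2 and 3. In Drd2 replicate 3 it exceeded the neuronal sum (1194 FPKM), as did the oligodendrocyte sum in Drd2 replicate 2 (1426 FPKM, beside 1187 FPKM for neurons). Within the neuronal sum, Snap25, a vesicle fusion protein, was at 875 ± 203 FPKM in PV and 345 ± 151 FPKM in Drd2 (SD, n = 3 each). Its range was 751 to 1109 FPKM in PV and 202 to 503 FPKM in Drd2. Tubb3, neuronal tubulin, went the other way, at 219 ± 137 FPKM in PV and 500.2 ± 68.1 FPKM in Drd2 (SD, n = 3 each). Rbfox3, Syt1 and Slc17a6 overlapped between the groups. The direction of the neuronal sum thus came from Snap25 alone. As a percent of this sum, Nefh was 6.17, 5.10 and 6.08 in PV replicates 6, 7 and 8, against 1.27, 1.18 and 0.979 in Drd2 replicates 1, 2 and 3. Nefm was 4.19 to 8.71 in PV and 0.726 to 1.36 in Drd2, and Nefl 9.14 to 15.5 in PV and 3.34 to 4.12 in Drd2, without overlap. The members were chosen from this contrast, and the share of all tested genes without overlap was not counted on this scale, so nothing is read from it. Ina lost its separation on this scale, at 8.38 to 8.83 in PV and 5.66 to 10.6 in Drd2.

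Of 10 marker sums, 3 separated the groups: the neuronal sum (higher in PV through Snap25 alone), 3 GABA neuron markers (2.31 to 17.4 FPKM in PV and 0 to 0.859 FPKM in Drd2) and 5 red blood cell markers (743 to 3204 FPKM in PV and 0 to 12.1 FPKM in Drd2). PV replicate 7 had the highest sums of GABA, blood and neuronal markers. It had the lowest Nefm and Nefh of its group, but the highest Ina (128 FPKM) and a middle Nefl (155 FPKM). The sums for 7 mammillary, 8 astrocyte, 8 oligodendrocyte, 5 oligodendrocyte precursor, 9 microglial, 6 vascular and 10 monoaminergic and cholinergic markers overlapped. The mammillary sum was 27.5 to 60.9 FPKM in PV and 50.1 to 131 FPKM in Drd2. Within it Foxb1 (4.19 to 24.0 FPKM in PV, 26.4 to 76.4 in Drd2) and Nkx2-4 (0 in PV, 1.48 to 9.66 in Drd2) did not overlap, as was so for 19.0% of tested genes in either direction. Lhx1, Lhx5, Nkx2-1, Sim1 and Sim2 overlapped. Vascular markers were nearly absent, at 0.113 to 2.49 FPKM in PV and 0 to 0.736 FPKM in Drd2, with Cldn5 listed at 0 in all 6 libraries. Of the monoaminergic and cholinergic markers, Slc6a4, Slc5a7 and Slc18a3 were listed at 0 in all 6. The part that other cells have in the filament levels was not tested.

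Other intermediate filaments were scarce. Of 15 genes 4 could be tested, none passed in limma or in voom, and 0 had an unadjusted p under 0.05. Their median log2 difference was -0.46, beside -0.28 for all genes. Lmna, which encodes the nuclear lamins A and C, was at 7.38 ± 6.05 FPKM in PV and 12.7 ± 6.36 FPKM in Drd2, and Iffo1, an orphan member of the family, at 8.26 ± 4.50 FPKM in PV and 13.8 ± 4.73 FPKM in Drd2 (SD, n = 3 each). Gfap, the astrocyte filament, was at 16.9, 1.72 and 0.242 FPKM in PV replicates 6, 7 and 8, against 0, 2.31 and 3.52 FPKM in Drd2 replicates 1, 2 and 3. Vim, of immature and glial cells, reached 2.10 FPKM at most, in Drd2 replicate 2, and Krt8 was listed at 0 throughout.

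Proteins that assemble, link, carry or clear neurofilaments showed no common direction. All 25 were tested and none passed in limma or in voom, with 2 higher and 4 lower in PV at an unadjusted p under 0.05, where 12.8% of all genes had one. The median log2 difference was -0.13. Bag3, a chaperone partner in filament clearance, was at 1.81, 8.67 and 4.14 FPKM in PV replicates 6, 7 and 8, against 22.1, 28.2 and 18.4 FPKM in Drd2 replicates 1, 2 and 3 (log2 difference -2.18 ± 0.61, SE; limma adjusted p = 0.179). Uchl1, the neuronal ubiquitin hydrolase, was at 347 ± 44.1 FPKM in PV and 704 ± 32.7 FPKM in Drd2 (limma adjusted p = 0.222). Kif5b, a kinesin heavy chain of the family that carries neurofilaments, was at 39.4 ± 9.28 FPKM in PV and 16.8 ± 4.50 FPKM in Drd2 (SD, n = 3 each; limma adjusted p = 0.306).

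Among kinases and phosphatases that act on the tails, 24 of 25 were tested and none passed in limma or in voom. At an unadjusted p under 0.05, which 12.8% of all genes had, 1 was higher and 3 were lower in PV. The median log2 difference was 0.08, beside -0.28 for all genes. The lowest p values fell on phosphatase 2A subunits and a kinase activator. Ppp2r1a, the scaffold subunit, was at 124, 32.3 and 89.6 FPKM in PV replicates 6, 7 and 8, against 313, 249 and 249 FPKM in Drd2 replicates 1, 2 and 3 (limma adjusted p = 0.158). Ppp2r2b, a regulatory subunit, was at 55.3 ± 3.05 FPKM in PV and 20.6 ± 7.91 FPKM in Drd2 (limma adjusted p = 0.197). Cdk5r2, an activator of the tail kinase Cdk5, was at 2.26 ± 0.769 FPKM in PV and 11.5 ± 4.43 FPKM in Drd2 (SD, n = 3 each; limma adjusted p = 0.240).

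The other polymers of the axon gave no call either. All 21 microtubule-associated proteins were tested and none passed in limma or in voom. At an unadjusted p under 0.05, which 12.8% of all genes had, 2 were higher and 2 lower in PV. Their median log2 difference was -0.15, beside -0.28 for all genes. Tppp3, a tubulin-binding protein, was at 27.7 ± 18.4 FPKM in PV and 168 ± 70.1 FPKM in Drd2 (limma adjusted p = 0.103). Stmn1, which binds free tubulin, was at 439 ± 224 FPKM in PV and 1223 ± 116 FPKM in Drd2 (limma adjusted p = 0.179; it passed only with quantile normalization). Map1a, of mature axons and dendrites, was at 34.5 ± 13.8 FPKM in PV and 10.2 ± 4.47 FPKM in Drd2 (SD, n = 3 each; limma adjusted p = 0.232).

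Of 15 genes of the membrane skeleton (spectrins, ankyrins and adducins with band 4.1 proteins), all were tested and none passed in limma or in voom, and 0 had an unadjusted p under 0.05. The median log2 difference was 0.42, beside -0.28 for all genes. Of the 15, 12 were above 0, but the share of all tested genes above 0 was not counted. Sptbn1, a beta spectrin, was at 21.7 ± 8.51 FPKM in PV and 9.86 ± 4.25 FPKM in Drd2 (limma adjusted p = 0.462), Epb41l1 at 9.48 ± 5.32 FPKM in PV and 2.77 ± 2.42 FPKM in Drd2 (0.442), and Epb41 at 7.66 ± 0.666 FPKM in PV and 3.16 ± 1.91 FPKM in Drd2 (SD, n = 3 each; 0.489).

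**Figure D5:**
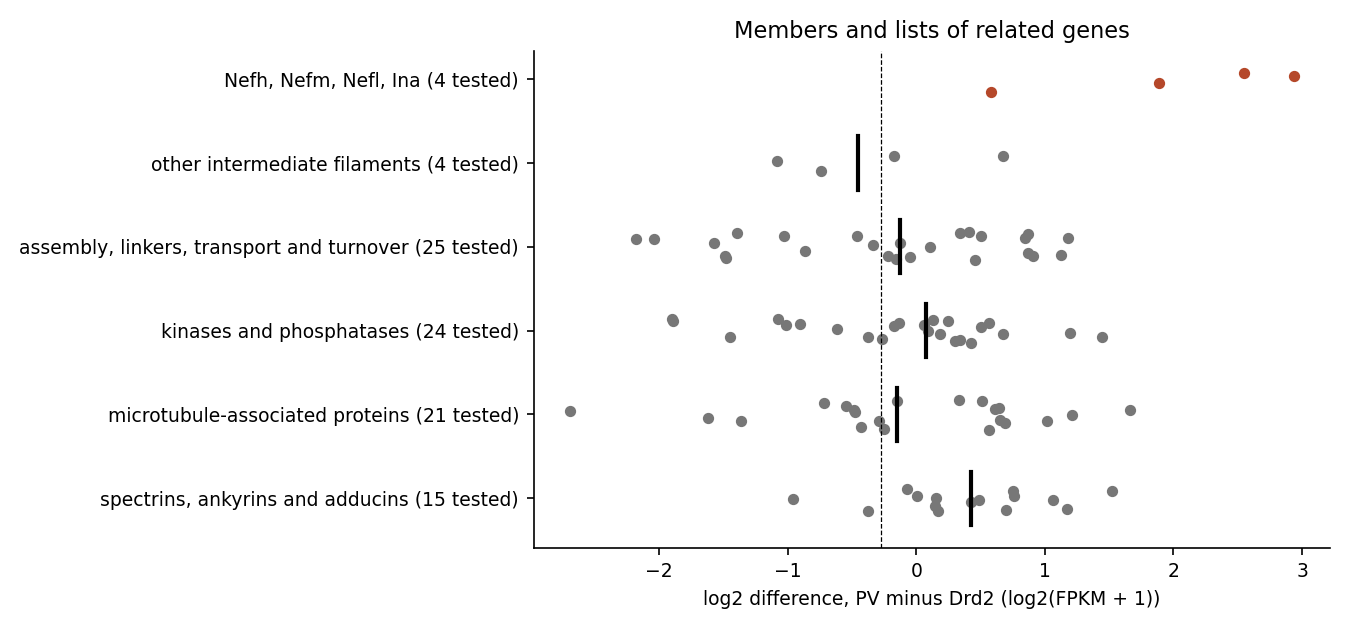
Log2 difference, PV minus Drd2, of each tested gene (points, with vertical scatter for legibility) for the 4 tested members and 5 lists of related genes. Black bars are list medians, from -0.46 to 0.42, and the dashed line is the median of all tested genes at -0.28. Nefm, Nefh and Nefl lie to the right of every listed gene, but the members were chosen from this contrast, so nothing is read from their place.

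Likeness was measured as Pearson's r of log2(FPKM + 1) over the 6 libraries, among 7097 named genes with a mean of at least 5 FPKM in 1 group. The 6 points fall into 2 groups, so for Nefh, Nefm and Nefl r mostly ranks how cleanly a gene separates them. Ina barely separates the groups, so for Ina r does not mostly rank that. With each member, 23 to 38 genes reached 0.95. Nefh correlated at 0.97 with Nefm and with Nefl, Nefm with Nefl at 0.94, and Ina with the 3 at 0.64 to 0.80.

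Nearest to Nefh came Sntg2, a syntrophin (r = 0.998). It was at 8.28, 7.30 and 7.67 FPKM in PV replicates 6, 7 and 8, and was listed at 0 in all 3 Drd2 libraries. Slc24a2, a sodium, calcium and potassium exchanger, followed (0.993), at 36.9 ± 4.54 FPKM in PV and 7.16 ± 1.47 FPKM in Drd2 (SD, n = 3 each), then the noncoding RNA Oip5os1 (0.990), the haemoglobin gene Hba-a1 (0.989), whose reads can be split with its near-identical copy Hba-a2, and Atp2b2, a plasma membrane calcium pump (0.986). Slc24a2 was also among the 5 nearest to Nefm, with Nacc2 (0.988), Tmem41b, Ncoa7 and Fbxo38.

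Nearest to Nefl was Myo5a, a myosin motor (r = 0.995), at 12.3, 16.6 and 18.7 FPKM in PV replicates 6, 7 and 8, against 6.67, 6.68 and 6.51 FPKM in Drd2 replicates 1, 2 and 3. PV replicate 8 was highest and PV replicate 6 lowest of its group for both Nefl and Myo5a. The others were Tnfrsf12a, Cops9, Slc36a1 and Atp2b2. Ina had a different set: Pet100, an assembly factor of respiratory complex IV (0.997), the chromatin protein Ssrp1, the G-protein subunit Gnal, Mrpl9 and Etf1. Pet100 was at 27.0, 45.9 and 36.6 FPKM in PV replicates 6, 7 and 8, against 24.3, 8.89 and 8.94 FPKM in Drd2 replicates 1, 2 and 3. As for Ina, Drd2 replicate 1 came nearest to the PV libraries.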

How the data were processed

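RNA of 3 PV and 3 Drd2 libraries was sequenced. The submitters' processing notes name STAR without a version. The listed builds are mm10, hg38 and GRCh38. The authors deposited FPKM values per gene; the sources used here do not give the quantifier, the strand setting or the annotation. Exon lengths, positions and sequences came from GENCODE M21 (GRCm38). Multiplied by exon length, FPKM came in steps of 1 read: 97.9% to 98.8% of values up to 20 reads lay within 0.01 of a whole number, so read numbers were recovered. Reads carry no molecular identifiers, so they describe counting error only.

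The 11478 genes that reached 1 FPKM in 3 or more libraries were compared as log2(FPKM + 1) in limma 3.58.1 under R 4.3.3 (trend on intensity, 2-sided), Benjamini-Hochberg adjusted over all tested genes, threshold 0.05; this understates differences of weak genes. The fit was tested on simulated data. Alternatives were other pseudocounts, filters, scalings, no trend, voom on recovered reads, leaving out each library and, added after seeing the data, omitting both PV replicate 7 and Drd2 replicate 3 and rescaling the within-group spread.

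The members and gene lists were chosen with earlier results of these data known. Named genes are the members, Pvalb and Drd2, the 3 with the smallest p in each list, and the 5 most alike to each tested member with a mean of at least 5 FPKM in 1 group, predicted names left out. Nt5c2, Vim, Krt8 and Bfsp2 were named after their values were seen, as were the single markers. RefSeq promoters were matched for 2 of the 5 members and are not printed.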

Additional observations from a re-analysis of the deposited data

How the results depend on the processing

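No paired analysis was possible because the PV and Drd2 libraries share no replicate numbers. Calls over all genes were 5 higher and 25 lower in PV (16.7% higher). They were 1 and 3 with a pseudocount of 0.1 FPKM, 13 and 55 with 5 FPKM, 0 and 0 with no filter (1509 at an unadjusted p under 0.05 in limma), 3 and 23 after rescaling to TPM, 4 and 10 over nuclear protein-coding genes (28.6% higher), 22 and 46 with quantile normalization (32.4% higher), 6 and 40 without the trend, 7 and 15 with voom, and 5 and 13 without both PV replicate 7 and Drd2 replicate 3, an omission chosen after seeing the data. Leaving out 1 library gave 1 to 7 higher and 0 to 52 lower: 4 and 52 without PV replicate 6, 7 and 13 without PV replicate 8, and 2 and 0, 3 and 0, and 1 and 0 without Drd2 replicates 1, 2 and 3. The causes were not tested. All list counts stayed at 0 except that 1 microtubule-associated gene, Stmn1, passed with quantile normalization. Over 17 alternatives the log2 difference ran from 2.25 to 2.80 for Nefh, 2.58 to 3.29 for Nefm, 1.67 to 2.14 for Nefl and 0.41 to 0.85 for Ina. Relative to the median of all genes it ran from 2.38 to 3.09, 2.71 to 3.53, 1.93 to 2.45 and 0.54 to 1.09. Over the coding transcript, Nefm made up 31.6% of the 5-gene sum in PV and 13.2% in Drd2. Depth limits only Prph, at 0 to 550 reads. The within-group SD of Nefh was 0.102, 0.183 after rescaling to TPM and 0.165 after scaling to the neuronal marker sum.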
